A study of Mus musculus with 13 samples.

Results

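The step from E16.5 to E18.5 of mouse submandibular gland development was compared in 4 of the 13 deposited samples, 2 at each age. The genes described are those with at least 1 FPKM (fragments per kilobase of transcript, scaled to the number of mapped reads) in at least 1 of these 4 samples, which were 13496 of 23364 genes. All samples were whole submandibular glands of C57BL/6 mice, with no transgene or treatment. Both E16.5 samples and both E18.5 samples were pools of glands from 2 animals each, and the sex of the embryos was not ascertained. The E14.5 samples used beside them were 3 pools of glands from 3 animals each. The fit also held 2 samples each at P5, 4wk and 12wk, of which those at 4wk and 12wk were from males and the sex at P5 was not ascertained. Values in a whole gland mix all of its cells, so that fewer cells of a type and less RNA per cell cannot be told apart.

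In the salivary gland (SG), E16.5 is the canalicular stage, when lumens open in the branched epithelium, and E18.5 the terminal bud stage, when the end buds become secretory. The end buds of the fetal mouse gland hold proacinar cells, which make their own set of secreted proteins before the adult acinar cells take over. A secretory cell needs signal peptide cleavage and folding in the endoplasmic reticulum (ER), glycosylation in the Golgi, granule traffic to the apical membrane, and ion channels that drive fluid. Around the epithelium lie mesenchyme, vessels, a parasympathetic ganglion and, next to the gland, skeletal muscle and fat.

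The reads on genes, computed from the steps between low FPKM values, were 36258034 and 37309531 in the E16.5 samples against 17345305 and 32444867 in the E18.5 samples. On a gene of 1 kilobase, 1 read was worth between 0.0268 and 0.0577 FPKM in these samples. Across the 13496 genes, which are not independent replicates, log2(FPKM + 1) correlated with a Pearson's r of 0.977 between the E16.5 samples, 0.985 between the E18.5 samples and from 0.943 to 0.958 between ages. The E16.5 samples stood apart from each other in abundant transcripts. Summed FPKM of 83 genes for cytosolic ribosomal proteins was 176743 and 90220 in the E16.5 samples against 104917 and 134524 in the E18.5 samples. The adult haemoglobin gene Beta-s was at 8055 and 3251 FPKM at E16.5. The 16 tested markers of epithelium summed to 1780 and 2288 FPKM at E16.5 and to 2035 and 2114 FPKM at E18.5, with 0 of them called by limma (2 at an unadjusted p below 0.05), and defining members such as Epcam (234 and 307 FPKM, then 274 and 263 FPKM) were high in all 4 samples.

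Genes were compared on log2(FPKM + 1) in a limma fit over all 13 samples, and a gene was called where the fold change on the log2 scale was 1 or more either way and the adjusted p was below 0.1. At E18.5, 162 genes were higher (1.2% of those tested) and 273 lower (2.02%), together 435 (3.22%). In all 162 and all 273, both E18.5 samples lay on the same side of both E16.5 samples, which held for 53.1% of all tested genes. The median change over all tested genes was -0.15 on the log2 scale, and -0.02 after median-of-ratios rescaling, which sets that median near 0 by construction. The split of calls moved with it. Of the calls on deposited FPKM, 37.2% were rises, and of the 371 calls after rescaling 52.3% were, with 194 genes higher (1.44% of those tested) and 177 lower (1.31%), in all 2.75%. Both ways of scaling called 158 of the 162 rises and 177 of the 273 falls. The change was 3 or more on the log2 scale in 17 rises and 30 falls. A pair of groups with 2 samples each allows no exact permutation p below 0.333, so the calls rest on the spread shared across genes and ages in the fit. Without E16.5 replicate 1, 457 genes were lower in place of 273, and without E18.5 replicate 2, 122 genes were higher and 183 lower.

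**Figure D1:**
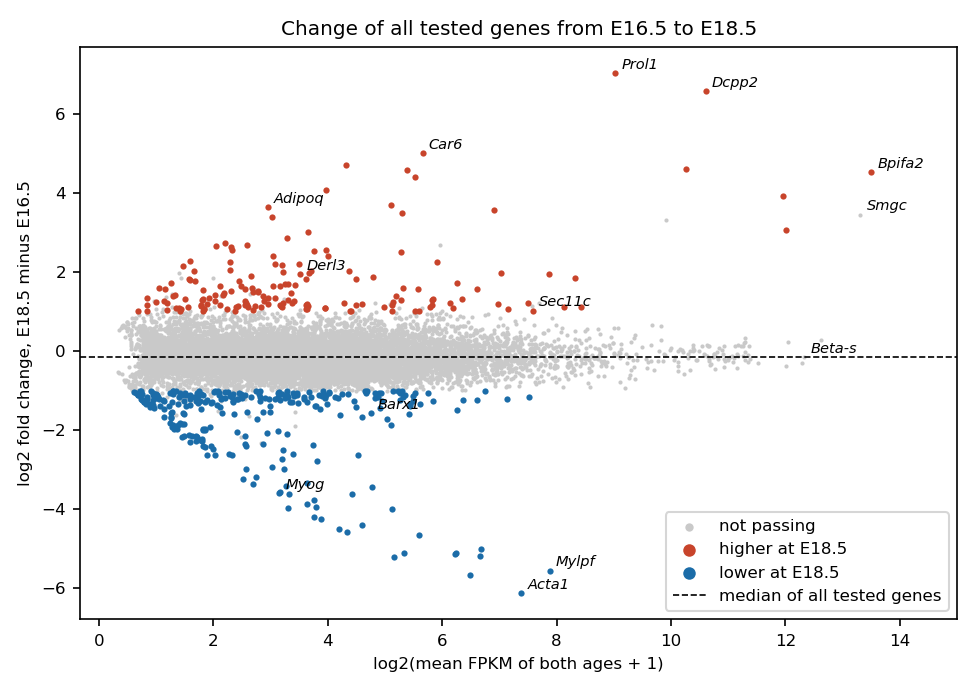
Log2 fold change from E16.5 to E18.5 (y axis) against log2 of the mean FPKM of both ages plus 1 (x axis) for the 13496 tested genes, with 162 called higher in red, 273 called lower in blue and the median of all genes, -0.15, as a dashed line. Secretory genes such as Prol1, Dcpp2 and Bpifa2 lie at the top and right, and muscle genes such as Acta1 and Mylpf at the bottom.

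The genes gained were first of all those for secreted salivary proteins. Of 36 tested products of acinar and proacinar cells, 25 rose and 0 fell, against 1.2% of all genes rising, and their median log2 fold change was 2.04 against -0.15 for all genes. The 43 genes of that list in the files summed to 5465 and 5772 FPKM at E16.5 and to 55818 and 74486 FPKM at E18.5. Of the 20 largest rises, 16 were on it. The list was chosen with earlier results of these data known, so these shares describe it and are no independent test. Rescaled FPKM gave 25 rises as well, and leaving out a sample gave from 19 (without E18.5 replicate 2) to 24.

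Prol1, which codes for a proline-rich salivary and lacrimal protein (chromosome 5, 88746337 to 88757842 in mm9), had the largest rise. It was at 5.701 and 7.425 FPKM at E16.5 and at 758.6 and 1299 FPKM at E18.5. Its log2 fold change was 7.05 (standard error 0.26, limma adjusted p = 8.7e-08), and it reached 1.36% and 2.33% of its mean level at 12wk. Car6, the secreted carbonic anhydrase of saliva (chromosome 4, 149561124 to 149575441), rose from 1.793 and 2.134 FPKM to 79.17 and 114.9 FPKM, by 5.03 (standard error 0.19, adjusted p = 8.7e-08). In both genes the ages were far apart beside the gap between samples of an age. Pip, the prolactin-inducible protein that binds bacteria and other proteins in saliva, went from 112.6 and 78.34 FPKM to 1946 and 2800 FPKM, by 4.62 (standard error 0.27, adjusted p = 2.9e-06).

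Bpifa2, the parotid secretory protein with a fold that binds bacterial lipids, was the most abundant transcript of the gland at E18.5. It stood at 787 and 1134 FPKM at E16.5 and at 18019 and 26530 FPKM at E18.5, a log2 fold change of 4.53 (standard error 0.77, adjusted p = 0.0049). At E18.5 this was 95.9% and 141% of its mean level at 12wk, while Pip was at 5.19% and 7.47% and Car6 at 0.338% and 0.491% of theirs. Smgc, which codes for the submandibular gland protein C of proacinar cells, was next in abundance. Its level was 1351 and 2109 FPKM in the E16.5 samples against 17748 and 19478 FPKM in the E18.5 samples, with no overlap of the ages. Even so, its log2 fold change of 3.46 (standard error 1.35) did not pass in the fit over 13 samples (adjusted p = 0.12), and passed in the fit of these 4 samples (adjusted p = 0.041). Muc19, the gel-forming mucin read from the same locus, was at 15.9 and 33.48 FPKM and then at 44.48 and 49.05 FPKM, and did not pass (adjusted p = 0.19).

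The Dcpp genes, for demilune cell and parotid proteins, rose as a cluster on chromosome 17. Dcpp2 was at 28.3 and 31.94 FPKM at E16.5 and at 2402 and 3763 FPKM at E18.5 (log2 fold change 6.60, standard error 1.57, adjusted p = 0.023). Dcpp1 went from 600.1 and 380.8 FPKM to 5978 and 8934 FPKM, by 3.93 (standard error 1.14, adjusted p = 0.05), and Dcpp3 from 1040 and 722 FPKM to 6328 and 8331 FPKM, by 3.07 (standard error 0.67, adjusted p = 0.016). Without E18.5 replicate 2 these 3 calls were lost, with adjusted p of 0.15, 0.24 and 0.12 for Dcpp2, Dcpp1 and Dcpp3, and Dcpp1 was lost as well without E16.5 replicate 2 (adjusted p = 0.18) and without E18.5 replicate 1 (adjusted p = 0.13). The genes are near copies, and reads that fit several places were left out by the authors, so the level of each copy is uncertain. Their promoters are shown because they make that likeness visible, each with 250 bases before the gene start and 50 after it (RefSeq, GRCm38.p6, plus strand of chromosome 17, chr17:23880626-23880925 for Dcpp1, chr17:23898472-23898771 for Dcpp2 and chr17:23917208-23917507 for Dcpp3), with the letters TATAA in capitals.
Dcpp1: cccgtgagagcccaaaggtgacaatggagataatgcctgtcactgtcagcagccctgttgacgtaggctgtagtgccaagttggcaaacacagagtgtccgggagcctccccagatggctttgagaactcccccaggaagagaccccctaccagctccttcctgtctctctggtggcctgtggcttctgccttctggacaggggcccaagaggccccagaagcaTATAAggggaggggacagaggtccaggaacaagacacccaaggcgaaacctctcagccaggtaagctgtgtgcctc
Dcpp2: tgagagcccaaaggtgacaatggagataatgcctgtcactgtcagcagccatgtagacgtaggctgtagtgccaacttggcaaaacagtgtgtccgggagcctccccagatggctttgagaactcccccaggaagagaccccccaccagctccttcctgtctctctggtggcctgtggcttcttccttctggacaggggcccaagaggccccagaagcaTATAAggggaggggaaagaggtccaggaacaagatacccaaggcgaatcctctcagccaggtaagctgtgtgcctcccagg
Dcpp3: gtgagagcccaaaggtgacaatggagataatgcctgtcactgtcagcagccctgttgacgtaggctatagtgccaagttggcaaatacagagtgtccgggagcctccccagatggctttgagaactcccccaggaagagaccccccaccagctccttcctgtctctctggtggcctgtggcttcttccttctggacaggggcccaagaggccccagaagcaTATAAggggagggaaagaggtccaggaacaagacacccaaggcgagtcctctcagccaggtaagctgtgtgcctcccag
Over their aligned bases Dcpp1 and Dcpp2 shared 96.9%, Dcpp1 and Dcpp3 97.6% and Dcpp2 and Dcpp3 97.7% of letters, and each held TATAA once, at position -26, -31 and -29 from the start.

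Windows of the same length were searched in all genes with a RefSeq entry, on both strands. TATAA was in 13 of 24 windows of the secretory products called (54.2%), in 30.7% of the 114 windows of all genes called higher, in 26.7% of the 191 windows of genes called lower, in 13.2% of the 9880 windows of tested genes and in 25.5% of all 27025 windows. The 24 windows include those of Dcpp1, Dcpp2 and Dcpp3, near copies that each hold TATAA, so they are not independent of each other. The promoter of Bpifa2 (chr2:154008026-154008325, plus strand, GRCm38.p6) is shown as that of the most abundant transcript at E18.5, with its only TATAA, at position -40, in capitals.
Bpifa2: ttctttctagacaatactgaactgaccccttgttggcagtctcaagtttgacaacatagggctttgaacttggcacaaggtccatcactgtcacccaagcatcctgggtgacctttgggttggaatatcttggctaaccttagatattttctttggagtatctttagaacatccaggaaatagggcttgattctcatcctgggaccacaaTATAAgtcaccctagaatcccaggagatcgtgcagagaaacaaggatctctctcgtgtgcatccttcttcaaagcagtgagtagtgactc
The window of Prol1 held no TATAA.

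**Figure D2:**
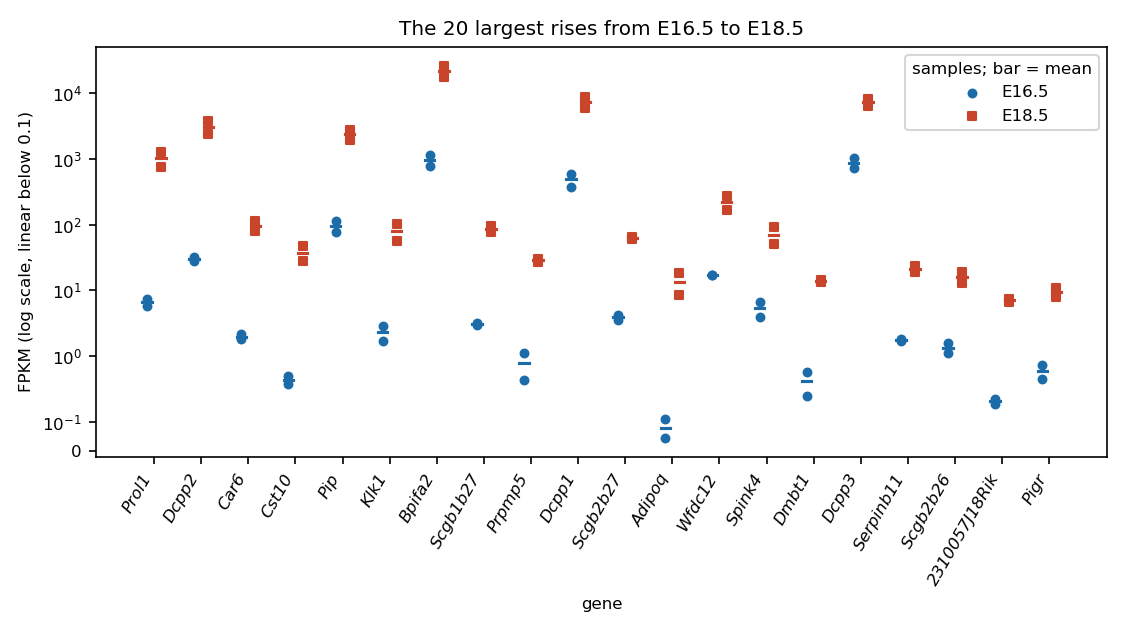
FPKM on a log scale (y axis, linear below 0.1) of the 20 genes with the largest rises (x axis), with each E16.5 sample as a blue circle, each E18.5 sample as a red square and the mean as a bar. The genes were picked among those whose ages do not overlap, so the E18.5 samples lie above the E16.5 samples in every gene by that choice. The highest value is 26530 FPKM for Bpifa2.

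Other secretory products rose as well. Cst10, a cystatin, was at 0.4894 and 0.3737 FPKM at E16.5 and at 27.99 and 47.19 FPKM at E18.5 (log2 fold change 4.71, standard error 0.81, adjusted p = 0.0052). Prpmp5, a proline-rich protein gene listed at 0 in all 3 E14.5 samples, went from 0.4296 and 1.127 FPKM to 26.94 and 30.32 FPKM (4.08, standard error 0.48, adjusted p = 0.00056). Wfdc12, a protease inhibitor of the whey acidic protein family, rose from 17.27 and 17.01 FPKM to 170.1 and 272.4 FPKM, and Spink4, a Kazal type inhibitor, from 6.667 and 3.956 FPKM to 50.76 and 91.05 FPKM. Serpinb11 rose by 3.01 (standard error 0.18). Products already present at E16.5 did not all go on to rise. Wfdc2 was at 329 and 302 FPKM and then at 306 and 324 FPKM, a pair of ages that overlap. Wfdc18 was at 847 and 570 FPKM and then at 902 and 1325 FPKM, and did not pass (adjusted p = 0.58).

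Transcripts that are abundant in the adult male duct and acinus were also called. In the families of proline-rich proteins, secretoglobins and Klk1 kallikreins, 16 of 19 tested genes rose and 0 fell, with a median of 2.06. Over all tested genes, 1.2% rose. The 16 overlap the secretory product list, which also holds Prol1, Prpmp5, Klk1, Scgb1b27, Scgb2b26 and Scgb2b27. Klk1, the true tissue kallikrein, rose from 2.865 and 1.713 FPKM to 57.26 and 102.2 FPKM (4.58, standard error 0.25, adjusted p = 2e-06). Scgb1b27, a secretoglobin, went from 3.237 and 3.014 FPKM to 96.98 and 77.62 FPKM, by 4.41 (standard error 0.18), and Scgb2b27 from 3.564 and 4.273 FPKM to 60.02 and 65.7 FPKM, by 3.70 (standard error 0.18). Set against their 12wk level, the levels of both secretoglobins were small, and their E14.5 samples were above their E16.5 samples. Scgb1b27 was at 0.117% and 0.0938% of its 12wk mean at E18.5, at 0.00391% and 0.00364% at E16.5 and at 0.0567%, 0.0578% and 0.0571% at E14.5. The 9 Klk1b genes with at least 5000 FPKM at 12wk, close copies of each other, had between 0.00903% and 0.0803% of that level at E18.5 (7 of them called higher), between 0% and 0.0116% at E16.5 and between 0.025% and 0.0421% at E14.5. Klk1b22 was listed at 0 in both E16.5 samples, at 4.113 and 2.932 FPKM at E18.5, and at 6.102, 6.565 and 6.133 FPKM at E14.5.

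Of the 162 rises, 27 were genes that reached 1000 FPKM on average at 4wk or 12wk. In 19 of those 27 the E14.5 mean was above the E16.5 mean, and in 13 of the other 135. Prol1 was itself at 0.0373%, 0.034% and 0.0395% of its 12wk mean at E14.5 and at 0.0102% and 0.0133% at E16.5, and its E18.5 samples were far above both ages. In Pip, Car6, Wfdc12 and Bpifa2 the E18.5 samples were likewise above those of both earlier ages. The median share of the 9 Klk1b genes was 0.0204% at E18.5, below the 0.0327% at E14.5, so that their calls rest on the lower E16.5 samples (median 0.000757%). Whether reads of these adult transcripts came from the embryonic glands was not tested. With those 27 genes taken out of the count, and no new fit, 135 rises remain.

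**Figure D3:**
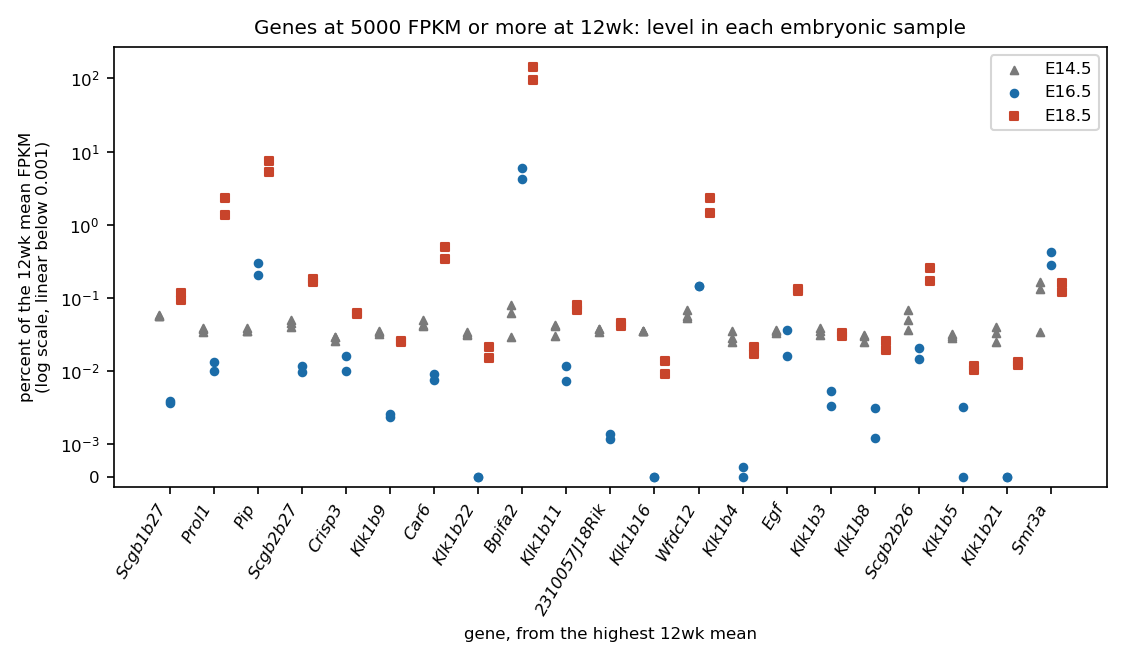
Level in each embryonic sample as a percentage of the 12wk mean (y axis, log scale, linear below 0.001) for the 21 genes with at least 5000 FPKM at 12wk, ordered by that mean (x axis), with E14.5 as grey triangles, E16.5 as blue circles and E18.5 as red squares. Klk1b genes stay at or below 0.0803% at all 3 ages with E14.5 above E16.5, while Bpifa2, Pip, Prol1 and Wfdc12 stand at 1.36% to 141% at E18.5.

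Genes of the secretory machinery had smaller changes than the secreted products. Of 57 tested genes for translocation, folding and quality control in the ER, 3 rose and 0 fell, against 1.2% of all genes rising. The median log2 fold change was 0.38 against -0.15 over all genes. Above 0 were 55 of the 57, and 4424 of all 13496 tested genes. Derl3, which draws misfolded proteins out of the ER, had the largest rise, from 2.766 and 4.815 FPKM to 16.1 and 18.23 FPKM (1.95, standard error 0.21, adjusted p = 0.00026). Ero1lb, an oxidase for disulphide bonds, went from 1.932 and 2.75 FPKM to 7.222 and 5.213 FPKM (1.11, standard error 0.17, adjusted p = 0.0032), and Sec11c, a catalytic subunit of signal peptidase, from 139.4 and 111 FPKM to 225.3 and 287.8 FPKM (1.03, standard error 0.18, adjusted p = 0.0056). Ero1lb fell short of the fold threshold without E16.5 replicate 1 (0.93) and without E18.5 replicate 1 (0.91), and Sec11c without E16.5 replicate 2 (0.86) and without E18.5 replicate 2 (0.85). Rescaling brought the rises in the list to 5, with Dnajc3 (0.95 on deposited FPKM) among them. The central chaperone Hspa5 was at 291 and 305 FPKM and then at 430 and 421 FPKM, and did not reach the fold threshold (0.51). Outside the list, and named after its values were seen, Serp1, which guards proteins at the translocon, rose from 223.9 and 207.6 FPKM to 467.2 and 475.5 FPKM (1.12, standard error 0.14, adjusted p = 0.00096).

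Among 46 tested genes of Golgi glycosylation and vesicle traffic, 6 rose (against 1.2% of all genes) and 0 fell, with a median of 0.32. Enzymes that add sialic acid led them. St6galnac1, which caps the first sugar of mucin type O-glycans, went from 2.225 and 3.81 FPKM to 19.4 and 24.48 FPKM (2.53, standard error 0.24, adjusted p = 0.00011), and St3gal1 from 15.07 and 22.74 FPKM to 58.34 and 58.61 FPKM (1.61, standard error 0.25, adjusted p = 0.0034). B3gnt6, which builds the core 3 structure of mucins, rose by 1.2 (standard error 0.29, adjusted p = 0.025). For transport, Sec23b, a coat protein of vesicles that leave the ER, rose by 1.19 (standard error 0.18), the cargo receptor Tmed3 by 1.06 (standard error 0.15), and Rab27b, a GTPase of granule release, from 6.802 and 7.164 FPKM to 15.95 and 15.86 FPKM (1.08, standard error 0.21, adjusted p = 0.0086). The count was 4 at its lowest when a sample was left out, and Sec23b was under the fold threshold without E16.5 replicate 1 (0.90), Tmed3 without E16.5 replicate 2 (0.91) and without E18.5 replicate 2 (0.94), and B3gnt6 lost its call without E16.5 replicate 1 (0.90) and without E18.5 replicate 2 (adjusted p = 0.18).

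Genes of fluid and ion transport gave 2 rises and 0 falls of 39 tested, with a median of 0.22. Over all tested genes, 1.2% rose and 2.02% fell. Kcne1, the small subunit that slows the potassium channel Kcnq1, rose from 1.818 and 2.2 FPKM to 12.28 and 13.34 FPKM (2.2, standard error 0.20, adjusted p = 9.9e-05), and P2rx4, a channel opened by extracellular ATP, from 26.56 and 32.71 FPKM to 55.77 and 65.22 FPKM (1.01, standard error 0.15, adjusted p = 0.0027), though P2rx4 was under the fold threshold without E16.5 replicate 1 (0.86) and without E18.5 replicate 2 (0.90). Slc12a2, the cotransporter that loads acinar cells with chloride, missed the fold threshold on deposited FPKM (0.98, from 31.76 and 50.92 FPKM to 89.95 and 71.38 FPKM) and passed it after rescaling, where 5 genes of the list rose. The water channel gene Aqp5 was at 94.35 and 126.8 FPKM and then at 163 and 170.3 FPKM, and did not pass (0.60, adjusted p = 0.56). This list depended on the E16.5 samples, since 1 gene was called without E16.5 replicate 1 and 7 without E16.5 replicate 2. Over the 225 tested solute carriers, 4 rose (Slc16a12, Slc44a4, Slc10a5 and Slc12a8) and 1 fell (Slc29a4), beside 1.2% and 2.02% of all genes. Their median was -0.02, and 0.09 after rescaling. Slc29a4 did not pass after rescaling (-0.84), and without E16.5 replicate 1 the rises Slc44a4 (0.97), Slc10a5 (0.77) and Slc12a8 (0.83) were under the threshold.

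Of 37 tested transcription factors of acinar and duct differentiation, 1 rose and 1 fell, beside 1.2% and 2.02% of all genes. Etv1, an Ets factor, went from 14.22 and 24.76 FPKM to 43.65 and 39.96 FPKM (1.11, standard error 0.27, adjusted p = 0.024), a call that was lost without E16.5 replicate 1 (0.73), without E18.5 replicate 1 (adjusted p = 0.11) and without E18.5 replicate 2 (adjusted p = 0.12). Grhl3, a factor of barrier epithelia, fell by 1.05 (standard error 0.19) and did not pass after rescaling (-0.87). Bhlha15, also called Mist1 and known as a factor of mature secretory cells, was at 35.81 and 51.61 FPKM and then at 77.72 and 74.94 FPKM (0.81, adjusted p = 0.30). Xbp1, the factor that widens the ER, was at 123.1 and 112.3 FPKM and then at 177.4 and 206.6 FPKM, a change of 0.70 that was below the fold threshold. Sox10 (-0.76) and Etv5 (-0.98) did not pass either, but without E16.5 replicate 1 both did (-1.09 and -1.22), and the list then had 4 falls. Etv5 passed without E18.5 replicate 1 as well (-1.17).

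Defence proteins of the mucosa contributed 6 rises and 0 falls of 37 tested genes, against 1.2% of all genes rising, with a median of 0.41. Dmbt1, a scavenger protein that clumps bacteria, went from 0.243 and 0.5753 FPKM to 13.5 and 14.16 FPKM (3.41, standard error 0.17, adjusted p = 7.2e-07). Pigr, which carries IgA across the epithelium, rose from 0.4443 and 0.7312 FPKM to 7.984 and 10.79 FPKM (2.70, standard error 0.63, adjusted p = 0.021), and the peroxidase gene Lpo from 59.74 and 144.2 FPKM to 377.7 and 345.2 FPKM (1.95, standard error 0.47, adjusted p = 0.024). Lpo lost its call without any of 3 samples, E16.5 replicate 1 and both E18.5 samples (adjusted p of 0.11, 0.11 and 0.12), and Pigr without E18.5 replicate 2 (adjusted p = 0.15). The other 3 were Bpifa2, given above, and the interferon-induced genes Isg15 (1.53) and Irf7 (1.19). Bpifa2, Pigr and Lpo also count among the rises of the secretory product list.

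**Figure D4:**
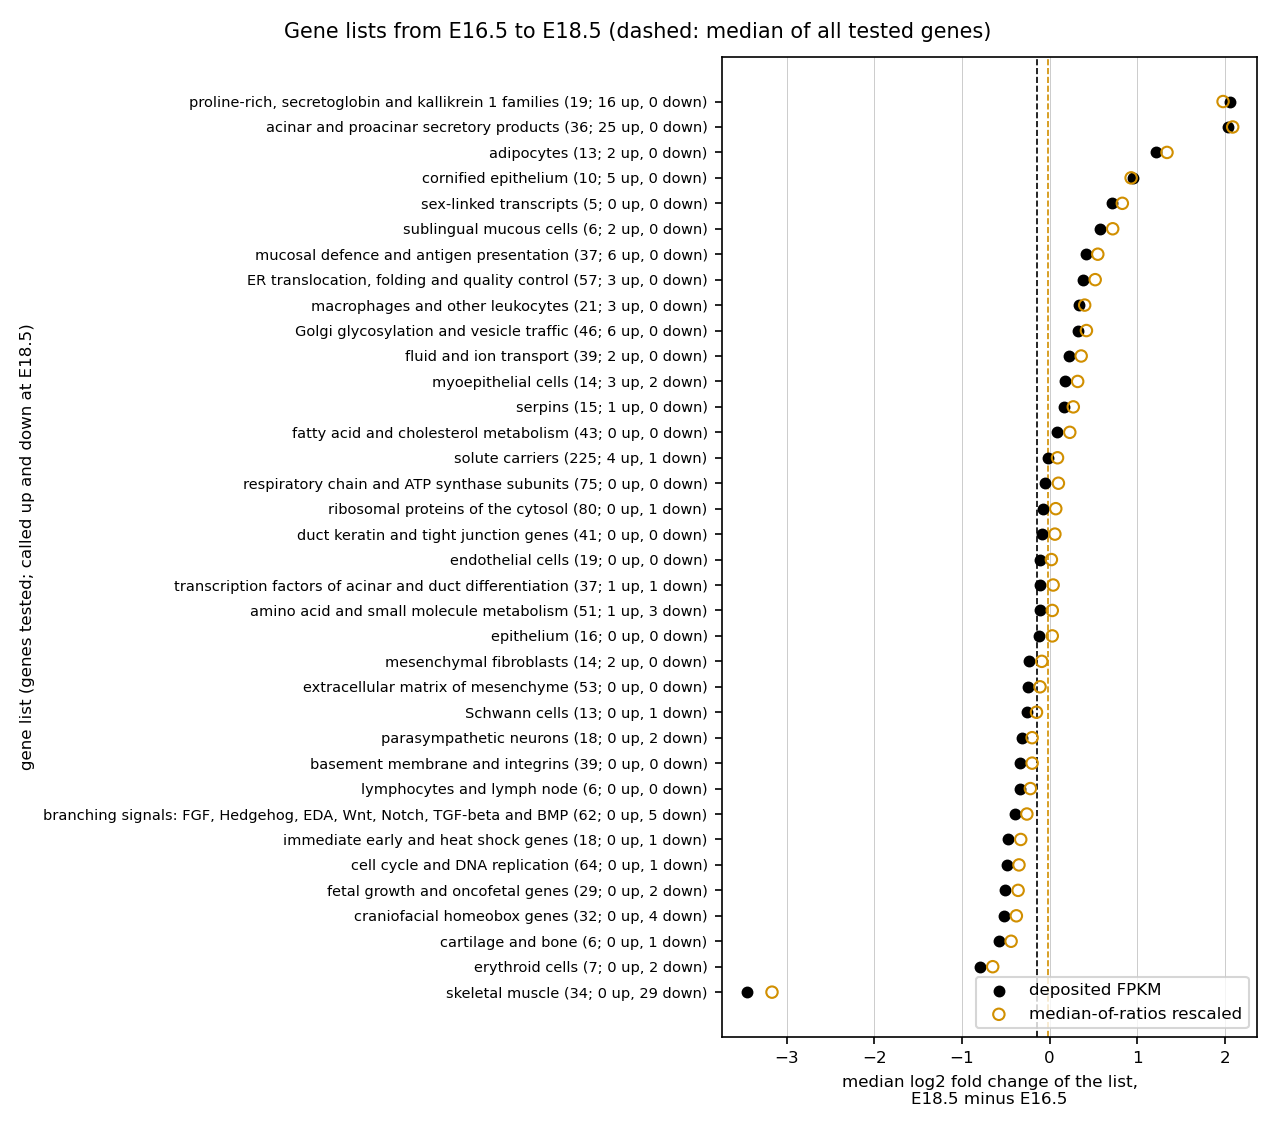
Median log2 fold change (x axis) of each of the 36 gene lists (y axis, with the genes tested and the numbers called up and down), as filled circles for deposited and open circles for rescaled FPKM, with dashed lines at the medians of all tested genes, -0.15 and -0.02. Secretory lists lie furthest right, at 2.04 and 2.06, and skeletal muscle furthest left, at -3.46.

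The genes lost were led by skeletal muscle. Of 34 tested markers of skeletal muscle, 29 fell and 0 rose, against 2.02% of all genes falling, and the median was -3.46. These markers, too, were chosen with earlier results of these data known. All 38 genes of the list summed to 1878 and 2429 FPKM at E16.5 and to 27.66 and 101.6 FPKM at E18.5, and 0 of them were at 0 in all 4 samples. The list made up 14 of the 20 largest falls. Most of the others in that group, such as Csrp3, Myoz1, Pgam2, Sln and Itgb1bp2, are also known from striated muscle. Rescaling left 26 falls in the list, and leaving out a sample gave from 23 to 30.

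Acta1, the skeletal muscle actin (chromosome 8, 126415669 to 126418651 in mm9), fell the most. It was at 186.4 and 465.6 FPKM at E16.5 and at 0.734 and 9.26 FPKM at E18.5, a log2 fold change of -6.13 (standard error 0.88, adjusted p = 0.0023). Actc1, the cardiac actin that fetal muscle also makes, went from 118 and 231.7 FPKM to 1.078 and 4.124 FPKM (-5.67, standard error 0.63, adjusted p = 0.00039). Mylpf, a fast muscle myosin light chain, went from 542.4 and 372.4 FPKM to 3.207 and 20.74 FPKM (-5.56, standard error 1.06, adjusted p = 0.0086). In all 3 genes E18.5 replicate 2 held more than replicate 1. The muscle creatine kinase Ckm fell from 49.22 and 104.6 FPKM to 0.4482 and 2.048 FPKM, and the embryonic myosin Myh3 from 15.49 and 52.94 FPKM to 0.1636 and 0.4681 FPKM.

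Regulators of muscle identity moved with the contractile genes. Myog, the factor of differentiating myoblasts, fell from 13.42 and 17.44 FPKM to 0.07791 and 0.7081 FPKM (-3.59, standard error 0.51, adjusted p = 0.0023). Myod1 was at 1.726 and 2.703 FPKM at E16.5, listed at 0 in E18.5 replicate 1 and at 0.3159 FPKM in replicate 2, and its call (-1.47, adjusted p = 0.072) was lost after rescaling (adjusted p = 0.12). At E14.5 the muscle genes were present and uneven, with Actc1 at 223.7, 56.43 and 46.88 FPKM and Myog at 47.27, 12.71 and 10.77 FPKM. The muscle RNA thus varied between samples of an age as well as between ages. Its source, and its part in the other falls, was not tested. With the summed muscle level as a covariate, an alternative chosen after seeing the data, 62 genes were higher and 52 lower. Of these, 40 rises and 18 falls were also called in the main fit. The median standard error of the change was 2.06 times as large as in the main fit.

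**Figure D5:**
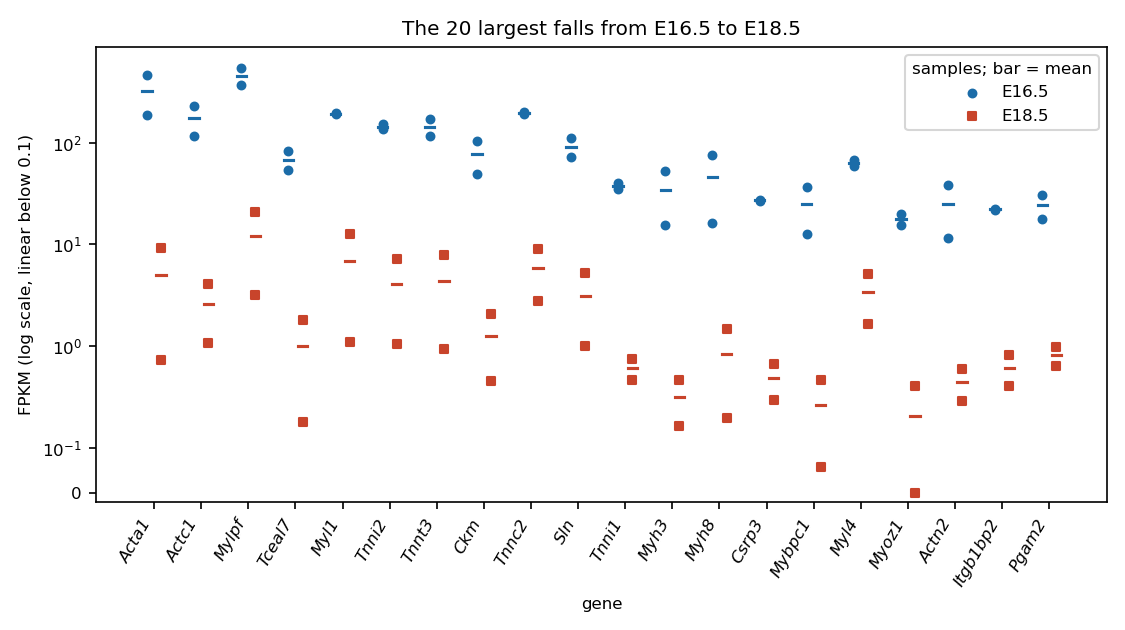
FPKM on a log scale (y axis, linear below 0.1) of the 20 genes with the largest falls (x axis), with each E16.5 sample as a blue circle, each E18.5 sample as a red square and the mean as a bar. The genes were picked among those whose ages do not overlap, so the E16.5 samples lie above the E18.5 samples in every gene by that choice. Myoz1 is listed at 0 in E18.5 replicate 1.

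The promoters of a pair of lost genes are shown for motifs known from muscle genes. CAGCTG, an E-box of the kind that MyoD family factors bind, was in 11 of the 23 windows of muscle markers called (47.8%), in 30.4% of windows of genes called lower, in 15.8% of those called higher and in 15.3% of those of tested genes. The CArG box, the site of serum response factor, was in 2 of the 23 windows (8.7%), in 5.76% of windows of genes called lower and in 1.3% of those of tested genes, and it can overlap TATAA. The first sequence is Actc1 (chr2:114052826-114053125, minus strand, GRCm38.p6), with its CArG box at position -47 in capitals, and the second Ckm (chr7:19410844-19411143, plus strand), with CAGCTG at position -249 in capitals.
Actc1: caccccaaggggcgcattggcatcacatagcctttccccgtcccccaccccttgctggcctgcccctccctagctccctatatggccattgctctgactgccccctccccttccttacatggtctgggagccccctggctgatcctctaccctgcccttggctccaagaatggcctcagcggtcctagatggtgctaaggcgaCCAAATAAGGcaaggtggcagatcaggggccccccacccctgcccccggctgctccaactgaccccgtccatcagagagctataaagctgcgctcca
Ckm: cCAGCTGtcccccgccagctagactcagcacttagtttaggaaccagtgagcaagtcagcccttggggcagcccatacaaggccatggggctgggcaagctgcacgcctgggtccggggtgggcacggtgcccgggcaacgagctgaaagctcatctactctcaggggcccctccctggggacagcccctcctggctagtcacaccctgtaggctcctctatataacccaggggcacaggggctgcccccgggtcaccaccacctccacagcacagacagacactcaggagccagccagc
These are matches of letters, and binding was not measured.

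The lists of functions held few of the called falls, and 219 of the 273 falls were on none of the 36 lists. Of all 13496 tested genes, 9072 were below 0 and 2.02% were called lower. The cell cycle and DNA replication list had 61 of 64 genes below 0 and a median of -0.49 (-0.35 after rescaling, against -0.02 for all genes), but 1 fall and 0 rises. That fall, of Ccne1, which drives entry into DNA synthesis, was from 40.45 and 33.93 FPKM to 18.63 and 16.28 FPKM (-1.05, standard error 0.25, adjusted p = 0.024) and did not pass after rescaling (-0.90). Mki67, a marker of cycling cells, was at 42.5 and 68.88 FPKM and then at 65.54 and 52.88 FPKM, with overlapping ages. The list's falls numbered 6 without E16.5 replicate 1 and 6 without E18.5 replicate 1.

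Signals of branching gave 5 falls and 0 rises of 62 tested genes, against 2.02% of all genes falling, with a median of -0.39. Sfrp2, a secreted inhibitor of Wnt signals in mesenchyme, fell from 62.02 and 60.89 FPKM to 23.8 and 23.4 FPKM (-1.34, standard error 0.29, adjusted p = 0.014), with E14.5 at 167.4, 88.87 and 91.61 FPKM, and was not called without E18.5 replicate 2 (adjusted p = 0.1). The others were the Notch targets Hey1 (-1.16) and Hes1 (-1.02), the FGF receptor Fgfr4 (-1.23) and the Wnt enhancer Rspo1 (-1.11). After rescaling Hes1 (-0.87) and Rspo1 (-0.94) were below the fold threshold. Fgfr4 lost its call in the 7 embryonic samples (adjusted p = 0.12), without E16.5 replicate 2 (0.22), without E18.5 replicate 1 (0.16) and without E18.5 replicate 2 (0.21). Without E18.5 replicate 2 only 1 of the list's genes passed, against 10 without E16.5 replicate 1. Patterning genes of the jaw mesenchyme were near them, with 4 falls of 32 tested (against 2.02% of all genes) and a median of -0.52. Barx1, a homeobox factor of oral mesenchyme, went from 43.02 and 35.78 FPKM to 12.75 and 12.34 FPKM (-1.57, standard error 0.27, adjusted p = 0.0051) and Prrx2 from 9.796 and 10.07 FPKM to 3.421 and 4.013 FPKM (-1.22, standard error 0.25, adjusted p = 0.012), while Tbx1 (-1.07) and Hand2 (-1.03) did not pass after rescaling. The list's falls were 2 without E16.5 replicate 2, without E18.5 replicate 1 or without E18.5 replicate 2, and 6 without E16.5 replicate 1. With a pseudocount of 0.1 Prrx2 did not pass (adjusted p = 0.27).

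Growth genes of the fetus had a median of -0.51 with 2 falls of 29 tested, against 2.02% of all genes falling. The falls were Hmga1 (-1.24, standard error 0.23) and the imprinted Magel2 (-1.18, standard error 0.18). Hmga1 was under the threshold without E16.5 replicate 2 (-0.89) and Magel2 without E18.5 replicate 2 (-0.98). The list had 4 falls without E16.5 replicate 1 and 5 without E18.5 replicate 1. The abundant imprinted transcripts did not pass, with H19 at 2199 and 1520 FPKM and then at 1452 and 1459 FPKM, and Igf2 at 589 and 544 FPKM and then at 446 and 409 FPKM. Enzymes of creatine synthesis fell, Gamt from 17.5 and 23.42 FPKM to 5.619 and 8.065 FPKM (-1.46, standard error 0.25, adjusted p = 0.0056) and Gatm from 9.022 and 12.68 FPKM to 3.84 and 4.198 FPKM (-1.22, standard error 0.19, adjusted p = 0.003). They and Ddc (-1.18) were the 3 falls among 51 tested genes of amino acid and small molecule metabolism, where the alcohol dehydrogenase Adh1 was the 1 rise (1.98). Without E16.5 replicate 2 the change of Gatm, -1.0 when rounded, was just under the fold threshold. Extracellular matrix (53 tested), basement membrane and integrins (39), fatty acid and cholesterol metabolism (43), duct keratins and tight junctions (41) and the respiratory chain (75) each had 0 calls by limma in either direction. At an unadjusted p below 0.05 the numbers were 15, 8, 6, 8 and 4 in that order, of which 13 of the matrix and 7 of the basement membrane genes were lower, and 3689 of all 13496 genes passed that bound (2748 of them lower). Without E16.5 replicate 1, 8 matrix and 4 basement membrane genes fell.

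Markers of other cell types moved in part, beside 1.2% of all tested genes rising and 2.02% falling. In the myoepithelial list, 3 of 14 tested genes rose and 2 fell. Cnn1, a calponin of contractile cells, rose from 2.984 and 4.141 FPKM to 22.6 and 29.12 FPKM (2.56, standard error 0.19, adjusted p = 2.4e-05), Myh11, the smooth muscle myosin, by 1.39 and Mylk, the kinase of its light chain, by 1.07. The 2 that fell, Des (-2.63) and Tpm2 (-1.49), are also made by skeletal muscle, Tpm2 was not called without E16.5 replicate 2 or E18.5 replicate 2 (adjusted p of 0.12 and 0.13), and Acta2 was at 104 and 143.8 FPKM and then at 153.5 and 155.7 FPKM without passing. Vessel smooth muscle also expresses Cnn1 and Myh11. Mylk was not called without E16.5 replicate 1 (0.75), without E18.5 replicate 1 (adjusted p = 0.13) or without E18.5 replicate 2 (adjusted p = 0.15), and Myh11 without E16.5 replicate 1 (0.89).

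Some markers of fat and of cornified epithelium rose, beside 1.2% of all tested genes. The 17 adipocyte markers summed to 221.5 and 164.7 FPKM in the E16.5 samples against 524.9 and 334.2 FPKM in the E18.5 samples, and 2 of 13 tested rose, with a median of 1.21. Adipoq, the hormone adiponectin, went from 0.04477 and 0.1088 FPKM to 18.2 and 8.631 FPKM (3.66, standard error 1.00, adjusted p = 0.042), and Cfd, the adipose protease adipsin, from 0 and 0.05808 FPKM to 4.372 and 3.64 FPKM (2.28, standard error 0.78, adjusted p = 0.085). Cfd did not pass after rescaling (adjusted p = 0.12). E18.5 replicate 1 was also the higher of the pair in Plin1 (5.085 and 1.512 FPKM) and Ucp1 (5.33 and 0.3187 FPKM), and neither passed. The fat calls were unstable, with 6 genes in the fit of these 4 samples and 0 without E16.5 replicate 2 or without E18.5 replicate 2. Of 10 tested markers of cornified epithelium 5 rose, Calm4 (2.65), Krt1 (2.57), Krtdap (2.18), Krt10 (1.47) and Lor (1.31), and all 17 in the files summed to 18.73 and 17 FPKM and then to 56.1 and 55.45 FPKM. The part of skin or oral lining in these samples was not tested.

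The remaining cell types changed little. Their counts stand beside 1.2% of all tested genes rising and 2.02% falling. Of 21 tested leukocyte markers 3 rose, the mast cell protease Mcpt4 (1.70) and the macrophage genes Mrc1 (1.02) and F13a1 (1.02), and none of the 3 was called without E18.5 replicate 2. Fibroblast markers gave 2 rises of 14, Dpt (1.31) and Pi16 (1.16, not called without any 1 of the 4 samples), and sublingual mucous markers 2 of 6, Bpifb2 (1.66) and Agr2 (1.22, not called without E16.5 replicate 2 or E18.5 replicate 2). Bpifb2 and Agr2 also count among the rises of the secretory product list. Falls were 2 of 18 in parasympathetic neurons (Nefl and Hand2), 1 of 13 in Schwann cells (Ngfr) and 1 of 6 in cartilage and bone (Col9a3). There was also 1 of 18 in immediate early and heat shock genes (Gadd45b) and 1 of 80 in ribosomal proteins (Rps4y2). None of these falls passed after rescaling. Hbb-y, the embryonic globin, which was called lower (-2.38) but not after rescaling, was at 35.38 and 8.703 FPKM at E16.5, at 4.098 and 1.544 FPKM at E18.5 and at 2991, 334.3 and 670.2 FPKM at E14.5. Endothelial (19 tested), lymphocyte (6) and sex-linked (5) lists had 0 calls by limma, though 1 endothelial gene fell without E16.5 replicate 1 and 3 sex-linked genes rose without E16.5 replicate 2, and at an unadjusted p below 0.05 they had 3, 2 and 1 genes. Among 15 serpins Serpinb11 was the 1 call. In all, 94 of the 162 rises and 219 of the 273 falls were on none of the 36 lists.

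Against the step before it, from E14.5 to E16.5, the change from E16.5 to E18.5 was tested directly as a difference of both log2 fold changes. At the same thresholds it passed in 535 genes (3.96%). It was positive in 61 genes (0.452% of those tested) and negative in 474 (3.51%), and both steps share the E16.5 samples. Of the 162 rises, the difference passed as positive in 34, as negative in 9 and not at all in 119. Of the 273 falls, it passed as negative in 144 and not at all in 129. In the families of proline-rich proteins, secretoglobins and Klk1 kallikreins, the difference passed as positive in 15 of 19 tested genes. Where E14.5 lies above E16.5, as in the Klk1b genes above, the earlier step is negative and this raises the difference. Genes with a larger rise in the later step included Dmbt1, with 0.45 over the earlier step and 3.41 over the later (difference 2.95, adjusted p = 0.00024), and Serpinb11, with 1.41 and 3.01 (difference 1.60, adjusted p = 0.019). Genes that had risen mostly before E16.5 were the sublingual marker Agr2, with 5.10 and then 1.22 (difference -3.88, adjusted p = 0.0008), Lpo, with 4.88 and 1.95 (difference -2.93, adjusted p = 0.081), and Wfdc2, with 3.12 and then a change that rounds to 0 (difference -3.12, adjusted p = 8.2e-05). For Bpifa2, with 6.43 and 4.53, and for Smgc, with 9.04 and 3.46, the difference did not pass (adjusted p of 0.49 and 0.23). Skeletal muscle supplied 23 of the negative differences, such as Acta1 with 2.37 and -6.13.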

How the data were processed

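RNA-seq of mouse submandibular glands was analysed in 4 samples at E16.5 and E18.5, with 9 further samples of the same series in the fit. Per the labels and methods, single-end reads of 50 bases were mapped by the authors onto the mm9 genome (TopHat2 2.0.13, Bowtie2 2.2.6), genes were counted with featureCounts without reads that fit several places, and DESeq2 1.10.1 was used for normalization. They deposited 1 FPKM value per gene and sample, and no counts were used here.

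From these, log2(FPKM + 1) was fitted with limma 3.58.1 in R 4.3.3 (6 ages as groups, eBayes with trend, Benjamini-Hochberg adjustment over the 13496 genes with at least 1 FPKM in any of the 4 samples). The pseudocount of 1 understates changes of low genes. Calls required a change of 1 or more on the log2 scale at an adjusted p under 0.1. FPKM were also rescaled by median-of-ratios factors (1.246, 1.380, 1.221 and 1.148 for the 4 samples). Each embryonic sample was a pool of animals. The code was tested on simulated data. Depth came from FPKM steps and GENCODE gene lengths, positions from GENCODE for mm9 (12645 genes matched by name). Genes named are the 20 largest changes per direction whose ages do not overlap and that also pass rescaled, up to 8 called members per direction of each list, and further genes picked after their values were seen, such as Smgc, Myog, Serp1 and Hspa5. The members and lists were chosen with earlier results of these data known. Alternatives were other filters, a pseudocount of 0.1, an adjusted p of 0.05, fewer samples, no trend, a replicate block and each of the 4 samples left out. 1 gene is not reported here.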

Additional observations from a re-analysis of the deposited data

Results flagged for a closer look

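The change from E16.5 to E18.5 differed from that from E14.5 to E16.5 in 535 of the 13496 tested genes by limma on log2(FPKM + 1). The signed difference, later minus earlier, was positive in 61 and negative in 474. Of the 273 called falls, 144 were among the negative ones, so a negative difference does not mean a later change of smaller size. It was flagged because the difference between both steps was itself tested and passed. The E16.5 samples enter both steps with opposite sign, so a gene measured high in both E16.5 samples is moved towards a negative difference by construction.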

How the results depend on the processing

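Median-of-ratios rescaling lowered the falls from 273 to 177, and rescaling over these 4 samples alone raised the rises from 162 to 266. With the skeletal muscle covariate, chosen after seeing the data, 114 genes were called, 62 higher and 52 lower. Only 40 of those rises and 18 of those falls were shared with the main fit. When each of the 4 samples was left out in turn, calls ranged from 305 to 612, rises from 122 to 198, falls from 183 to 457 and differences between steps from 311 to 988. The differences between steps, 535 in the main analysis, were 321 at an adjusted p below 0.05. Deviations of equal replicate numbers at E16.5 and E18.5 correlated at -0.36. With 2 samples per age the sign depends on the numbering, so this cannot show whether replicate numbers pair the samples. A replicate block gave 431 calls and 310 differences between steps. With crossed numbers in that replicate block, also chosen after seeing the data, calls were 424. The causes of these shifts were not tested. The other alternatives kept the counts of calls, rises and falls within 1.5 times, the farthest being a pseudocount of 0.1 with 582 calls. Single genes were followed in 13 alternatives, which leave out the skeletal muscle covariate, the crossed replicate block and the adjusted p of 0.05. Of 149 genes followed by name, 88 kept their direction and side of the threshold in all 13, and 0 reversed. How these genes fared with the muscle covariate was not scored. Without E18.5 replicate 2, 40 lost their call, the most of any. Reads limit low genes, since 1 read per kilobase was worth 0.0577 FPKM in E18.5 replicate 1.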

Other observations

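The genes below were picked after their values were seen. Some interferon-induced genes were called higher, while others did not pass, such as Ifit1 (0.63, adjusted p = 0.32), Psmb8 (0.62, adjusted p = 0.17), Tap1 (0.41, adjusted p = 0.27) and Ifitm3 (0.07, adjusted p = 0.84). Iigp1, a GTPase against intracellular parasites, was at 0.3003 and 0.3776 FPKM at E16.5 and at 3.12 and 4.313 FPKM at E18.5 (log2 fold change 1.81, standard error 0.37, limma adjusted p = 0.011). Rtp4 went from 1.578 and 1.295 FPKM to 6.561 and 8.406 FPKM (1.79, standard error 0.29, adjusted p = 0.0039) and Usp18, which removes Isg15 from proteins, from 0.3115 and 0.3935 FPKM to 2.409 and 2.75 FPKM (1.40, standard error 0.16, adjusted p = 0.00045). Rsad2 rose by 1.1 (adjusted p = 0.054), after 0.781, 2.376 and 2.906 FPKM at E14.5. Iigp1, Rtp4, Usp18 and Rsad2 were higher in both E18.5 samples than in both E16.5 samples, at levels below 10 FPKM. The same order held in all 162 called rises and in 15.1% of all tested genes. Iigp1 was not called without E18.5 replicate 2 (adjusted p = 0.11), and Rsad2 was not called without E16.5 replicate 2 (0.17), without E18.5 replicate 1 (0.17) or without E18.5 replicate 2 (0.21).

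Among proteins of the secretory route on none of the lists, Nucb2, a calcium-binding protein of the Golgi, rose from 47.99 and 54.99 FPKM to 180.2 and 237.3 FPKM (1.99, standard error 0.18, adjusted p = 7.9e-05) and Lman1l, a homologue of the cargo lectin Lman1, from 27.85 and 43.05 FPKM to 108.8 and 124.4 FPKM (1.72, standard error 0.22, adjusted p = 0.0011). Fxyd2, a subunit that tunes the sodium pump, rose from 2.793 and 3.189 FPKM to 15.31 and 19.67 FPKM (2.2, standard error 0.34, adjusted p = 0.0031), and the peptidoglycan-binding protein Pglyrp1 from 119 and 158.5 FPKM to 439.6 and 565 FPKM (1.85, standard error 0.45, adjusted p = 0.025), a call that was lost without E18.5 replicate 2 (adjusted p = 0.17).

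Nrtn, the neurturin that feeds parasympathetic neurons, peaked at E16.5. It was at 9.937, 9.715 and 7.606 FPKM at E14.5, at 42.27 and 44.04 FPKM at E16.5 and at 15.22 and 15.18 FPKM at E18.5 (-1.45, standard error 0.18, adjusted p = 0.00086). Trp53, the p53 gene, went from 48.59 and 76.22 FPKM to 27.5 and 22.41 FPKM (-1.26, standard error 0.19, adjusted p = 0.0029) and was under the fold threshold without E16.5 replicate 2 (-0.94).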
